A study of Mus musculus with 4 samples.

Results

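Chromatin accessibility at 10 genes of the later oocyte was examined in female mouse germ cells at embryonic day 15.5: the zona pellucida genes Zp1, Zp2 and Zp3, the secreted growth factor gene Gdf9, and the maternal-effect genes Nlrp5, Ooep, Khdc3, Tle6, Padi6 and Npm2. They were chosen by name as genes expressed in later oocytes, and all 10 were found among the 21887 protein-coding genes of the RefSeq table used; all coordinates are on mm10 (GRCm38). The cells came from C57BL/6 embryos and were sorted by an Oct4-EGFP reporter, a fluorescent protein marking germ cells. ATAC-seq, in which a transposase cuts open DNA, was deposited for 2 Control libraries and 2 Snf5 CKO libraries, in which Snf5 was conditionally deleted. Snf5, also called Smarcb1, encodes a core component of SWI/SNF, a complex that moves and evicts nucleosomes. The labels name neither the Cre driver nor the alleles of the controls, and do not say whether the libraries of a group came from separate embryos, so the spread within a group may be technical. Pairs of values below are for libraries 1 and 2 of a group, in that order.

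The zona pellucida is the glycoprotein coat that a growing oocyte lays around itself, and sperm bind to it at fertilisation. GDF9 is secreted by the oocyte and acts on the surrounding granulosa cells. NLRP5, OOEP, KHDC3 and TLE6 belong to the subcortical maternal complex. PADI6 is needed for the cytoplasmic lattices of the oocyte, and NPM2 is the oocyte's nucleoplasmin. Embryos of mothers lacking such proteins can fail in early development. The transcription factor FIGLA activates zona genes in oocytes through E-boxes, sites that read CANNTG. These genes are transcribed mainly in oocytes enclosed in follicles, after the stage studied here.

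Open is used here for a gene with a peak within 1 kb of either annotated end. Gdf9 and Tle6 were open in all 4 libraries, which is 2 of 10 genes, beside 55.0% of all protein-coding genes. Ooep was the gene called lost, with a peak in both controls and in neither Snf5 CKO library. Across the genome 2.97% of protein-coding genes were called lost in this way. No member was gained in Snf5 CKO (0.187% of all genes). Zp1, Zp2, Nlrp5, Khdc3 and Padi6 had no peak at a gene end in any library, 5 of 10, beside 33.6% of all genes. Zp3 had a gene-end peak in Control 1 alone, and Npm2 had a gene-end peak in Control 2 and Snf5 CKO 2. In both controls together 3 of 10 members were open, against 61.3% of all genes. With Control 2 left out the lost members numbered 2, Zp3 and Ooep. With 2 libraries against 2 the smallest two-sided exact permutation p is 0.333, so no test was made and the values below are descriptive.

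**Figure D1:**
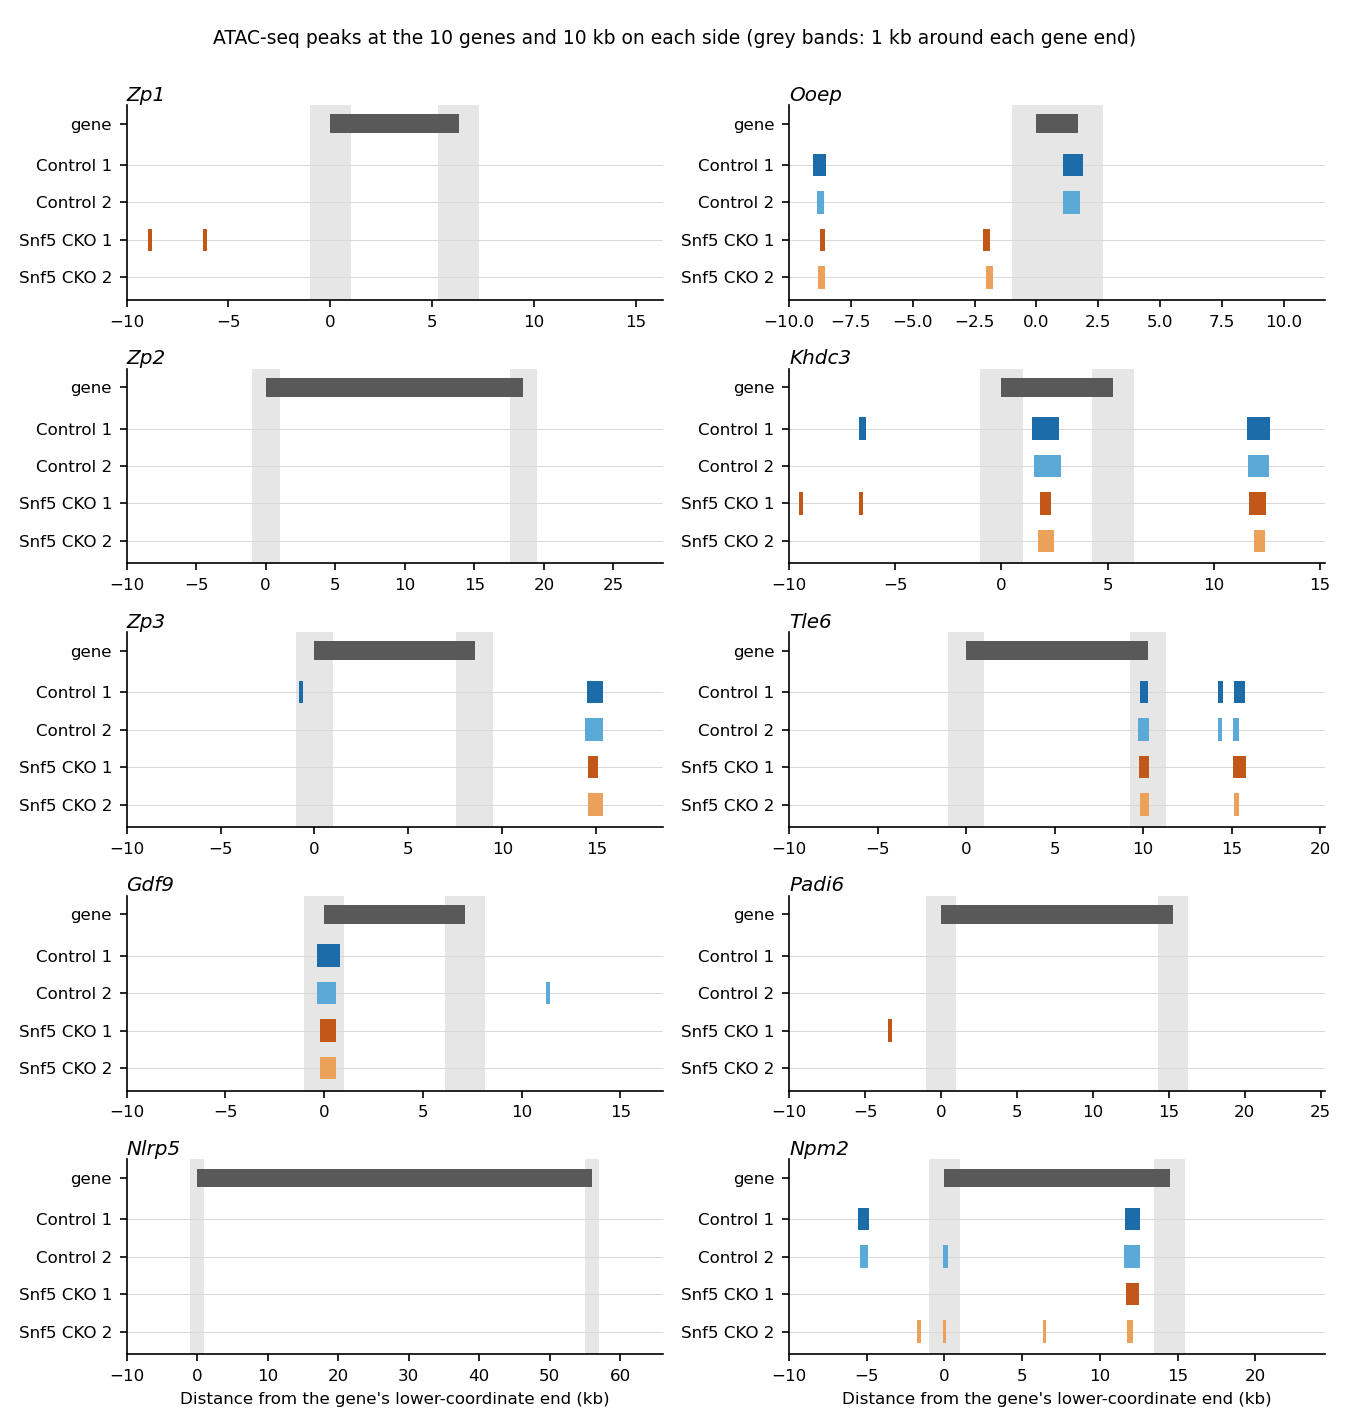
Peaks of each library (coloured boxes, 1 row per library) over each of the 10 genes (dark bar) and 10 kb on each side; the x axis is the distance in kb from the gene's lower-coordinate end, and grey bands mark 1 kb around each gene end. Gdf9 and Tle6 have an end peak in all 4 libraries, Ooep has an end peak in the 2 controls alone, and Zp2 and Nlrp5 have no peak.

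When the whole gene plus 1 kb was searched, Khdc3 and Npm2 joined Gdf9 and Tle6 with a peak in all 4 libraries, 4 of 10 genes beside 63.3% of all protein-coding genes. This search was added after the data had been seen. Both of these peaks lay inside the gene, beyond the reach of the windows at its ends. No peak was found in the gene plus 1 kb in 4 of 10 members, Zp1, Zp2, Nlrp5 and Padi6, beside 24.2% of all protein-coding genes. Within 10 kb on each side, 6 of 10 members had a peak in all 4 libraries, beside 69.8% of all protein-coding genes and 71.9% of the 15124 genes as long as the members (1686 to 56035 bp). Zp2 and Nlrp5 had no peak there in any library, as was true of 14.2% of genes in that range of length. Zp1 and Padi6 had peaks within 10 kb in Snf5 CKO 1 alone. With peaks at ends of other protein-coding genes left out, 4 of 10 members had a peak within 10 kb in all 4 libraries. This count holds Ooep, whose control and Snf5 CKO peaks then lay at different places.

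The promoter sequences of 6 members, Zp3, Nlrp5, Ooep, Khdc3, Tle6 and Padi6, were in the RefSeq table of GRCm38.p6 promoters, as 8 windows of 300 bases, from 250 bases before to 50 after a start. Tle6 and Nlrp5 each have an outer start near the gene end and an inner one. The bases before the start are shown for 4 genes that span the range of CG content, 5′ to 3′ along the gene's strand with each CG in capitals. Tle6 (open in all libraries) lies on the minus strand at chr10:81600901-81601150, Ooep (lost) on the minus strand at chr9:78378589-78378838, Zp3 (peak near its start in 1 library) on the plus strand at chr5:135979855-135980104, and Khdc3 (peak inside the gene) on the plus strand at chr9:73102148-73102397.
Tle6: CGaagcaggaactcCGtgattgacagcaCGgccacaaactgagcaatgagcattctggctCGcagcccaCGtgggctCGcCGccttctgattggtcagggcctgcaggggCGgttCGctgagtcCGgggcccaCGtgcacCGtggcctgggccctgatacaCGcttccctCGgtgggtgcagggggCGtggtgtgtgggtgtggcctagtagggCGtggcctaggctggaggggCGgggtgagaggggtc
Ooep: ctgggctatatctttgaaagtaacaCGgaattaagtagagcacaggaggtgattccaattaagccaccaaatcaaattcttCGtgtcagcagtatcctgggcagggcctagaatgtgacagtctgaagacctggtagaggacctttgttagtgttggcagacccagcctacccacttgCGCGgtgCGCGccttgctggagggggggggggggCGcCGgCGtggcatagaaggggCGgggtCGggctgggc
Zp3: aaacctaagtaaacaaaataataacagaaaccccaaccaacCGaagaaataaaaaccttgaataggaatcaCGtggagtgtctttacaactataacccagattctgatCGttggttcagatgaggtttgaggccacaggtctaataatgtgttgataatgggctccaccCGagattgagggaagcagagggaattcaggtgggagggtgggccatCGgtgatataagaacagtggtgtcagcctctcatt
Khdc3: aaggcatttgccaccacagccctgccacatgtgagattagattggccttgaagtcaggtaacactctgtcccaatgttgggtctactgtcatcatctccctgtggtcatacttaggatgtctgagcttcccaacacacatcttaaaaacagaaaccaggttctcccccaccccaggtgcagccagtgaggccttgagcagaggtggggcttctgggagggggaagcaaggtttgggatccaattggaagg

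CG dinucleotides are dense in the promoters of many genes that are open in most tissues. The outer Tle6 promoter held 18 CG and was covered by a peak over 100% of its length in every library. Ooep held 15 CG, and peaks covered 81.7% and 39.7% of its window in the controls and 0% in both Snf5 CKO libraries. The outer Nlrp5 promoter held 9 CG, Zp3 7, the inner Tle6 promoter 3, Padi6 2, the inner Nlrp5 promoter 1 and Khdc3 0, and no library had a peak over any of them. Over the 21263 promoters of protein-coding genes in the table, 51.1% were touched by a peak in all 4 libraries. The share was 1.47% for promoters with 0 to 4 CG, 17.5% for 5 to 9, 59.0% for 10 to 14, 81.9% for 15 to 19 and 92.6% for 20 or more. The members without a promoter peak lay in classes where 95.0% (0 to 4 CG) and 61.6% (5 to 9) of promoters had no peak in any library, and Ooep lay in a class where 4.88% of promoters were lost in Snf5 CKO.

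**Figure D2:**
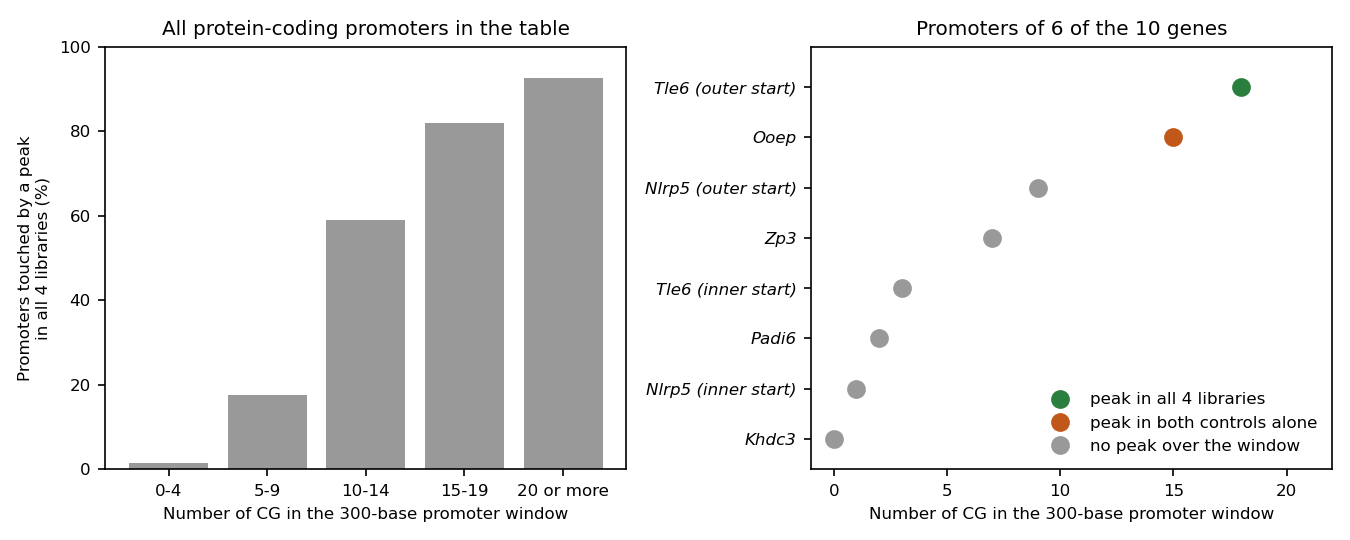
Left, the percentage of all protein-coding promoters touched by a peak in all 4 libraries (y axis) by the number of CG in the 300-base window (x axis), rising from 1.47% to 92.6%. Right, the number of CG (x axis) in the 8 promoter windows of 6 of the genes (rows), where the 2 windows with 15 or more CG, Ooep and the outer start of Tle6, are those a peak touched.

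Short motifs were searched on both strands of these windows, as letters only. CANNTG, the E-box, was in all 8 windows and in 69.0% of all promoters. CACGTG, an E-box that also counts as CANNTG, was in 2 members, Tle6 and Zp3, and in 7.84% of all promoters. Its first base lay at -183 and -119 in the outer Tle6 window and at -181 in the Zp3 window, where -1 is the base before the start. TAATTG, a homeodomain-type site, was in Ooep and Padi6 (6.83% of all promoters), and TAATTA in the outer Nlrp5 window (4.53%). That window also held GCGGGAA (5.95% of all promoters), and the inner Nlrp5 window held TATAAA (12.6%). CNCCTCAG was in no member window and in 8.52% of all promoters.

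Among the zona genes no end was open in more than 1 library. Zp1, which encodes a protein that cross-links the zona filaments, lies at chromosome 19, 10914296 to 10920601, between Prpf19 and Ptgdr2. Its nearest peaks in Control 1, Control 2 and Snf5 CKO 2 were 18302, 18633 and 18698 bp away, at the far end of Prpf19, a splicing factor gene open in all libraries. Snf5 CKO 1 had 2 peaks within 10 kb, each 200 bp wide with a fold enrichment, the peak caller's own value in the deposited lists, of 3.59 and 3.55. Both lay inside Prpf19, and 200 bp is the smallest width in every list. Peaks of that width made up 4.85% of the Control 2 list and 8.25% of the Snf5 CKO 1 list.

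Zp2, which encodes the zona protein cleaved after fertilisation, lies at chromosome 7, 120126762 to 120145291. Its nearest peak was 23858 to 24259 bp away in all 4 libraries and lay at the far end of Tmem159. Zp3, which encodes the main partner of ZP2 in the zona filaments, lies at chromosome 5, 135980105 to 135988624. Control 1 had a peak of 200 bp at 135979288 to 135979487, 618 bp before the Zp3 start, with a fold enrichment of 2.94 and a −log10 q of 1.66. That fold lay above 11.9% of the peaks of its own list. No other library had a peak within 1 kb of Zp3. The other peak of the Zp3 locus, 5867 bp beyond its far end, sat at an end of the neighbouring gene Dtx2 and was present in all 4 libraries. Its width was 839 and 971 bp in the controls and 545 and 795 bp in Snf5 CKO.

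Gdf9, the growth factor gene of the TGF-beta family, lies at chromosome 11, 53430774 to 53437904, and its lower-coordinate end overlaps the end of Uqcrq, a subunit gene of mitochondrial complex III. The peak there measured 1136 and 996 bp in the controls and 848 and 783 bp in Snf5 CKO. Both Snf5 CKO peaks were narrower than both control peaks. Fold enrichments were 5.23, 5.66, 7.72 and 7.39 in the same order, each above at least 86.3% of the peaks of its own list. Fold is scaled within a list and was not compared between lists. Because the Uqcrq end lies under the same peak, openness of Gdf9 and Uqcrq cannot be told apart. Without peaks that also touch another gene's end, an alternative added after the data were seen, Tle6 was the only member open in all libraries. Control 2 alone had a further 200 bp peak, 4097 bp beyond the other end of Gdf9.

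The 4 genes of the subcortical maternal complex differed from each other. Tle6, a corepressor-related member of the Groucho family, lies at chromosome 10, 81590904 to 81601185, and its lower-coordinate end overlaps Tle2. The peak at its outer start was 426 and 616 bp wide in the controls and 551 and 491 bp in Snf5 CKO. The widths of the groups overlapped: the control mean was 521 ± 134 bp (SD, n = 2) and the Snf5 CKO mean 521 ± 42.4 bp (SD, n = 2). Fold enrichments were 5.26, 4.98, 7.01 and 5.96, above 82.3% to 95.1% of the peaks of their lists. No library had a peak at the inner start. A smaller peak 3935 bp beyond the gene, of 283 and 209 bp in the controls, was absent from both Snf5 CKO lists, while a region at the pseudogene BC025920 next to it had peaks in all 4.

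Ooep encodes a KH-domain protein and lies at chromosome 9, 78376903 to 78378588. Control 1 had a peak of 812 bp at 78377972 to 78378783 and Control 2 a peak of 658 bp at 78378000 to 78378657, both over the Ooep start. Their fold enrichments were 3.35 and 4.34, above 29.3% and 65.9% of the peaks of their lists, and their −log10 q 2.94 and 5.09. Neither Snf5 CKO list had a peak in the gene. With a −log10 q of at least 3 required in every library, the Control 1 peak dropped out and Ooep was no longer called lost. Genome-wide, 4.84% of genes with an end peak in each control were lost, and of the 1027 among them whose weaker control peak had a −log10 q under 3, as at Ooep, 35.5% were lost. Both Snf5 CKO libraries had instead a peak beyond the other end of the gene, 1857 and 1756 bp away, of 320 and 278 bp, where neither control had one. Its fold enrichments of 3.16 and 3.31 lay above 12.7% and 9.10% of their lists. Windows of 2 kb reach that region, so under them Ooep counted as open in all libraries although the peaks lay at different places. Dppa5a, a related KH-domain gene 8704 bp away, was open in all 4 libraries with peaks of 530, 276, 221 and 283 bp.

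Khdc3, another KH-domain gene, lies at chromosome 9, 73101381 to 73106631. Its peak lay inside the gene, beginning 412 and 540 bp past the listed start at 73102398 in the controls and 819 and 723 bp past it in Snf5 CKO. It measured 1294 and 1246 bp in the controls and 509 and 714 bp in Snf5 CKO. The Snf5 CKO peaks were narrower than either control peak, with a control mean of 1270 ± 33.9 bp (SD, n = 2) and a Snf5 CKO mean of 612 ± 145 bp (SD, n = 2), a log2 ratio of −1.05. Fold enrichments were 4.42, 4.77, 3.74 and 3.52, above 68.6%, 77.7%, 35.4% and 15.7% of their lists. When windows were drawn at the listed start in place of the gene ends, Khdc3 and Tle6 were the members open in all libraries among the 6 with a listed start. Rsl24d1, its neighbour, was open in all 4 libraries.

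Nlrp5, a maternal-effect gene of the NLR family, lies at chromosome 7, 23385889 to 23441923. At 56035 bp it is the longest of the 10 genes. It had no peak in any library. The nearest peak was 639616 and 61482 bp away in the controls and 153535 and 223109 bp away in Snf5 CKO. The same distance was 13129, 13195, 3212 and 13193 bp for Padi6, a peptidylarginine deiminase gene at chromosome 4, 140727355 to 140742643. The Snf5 CKO 1 peak nearest to Padi6 was 269 bp wide with a fold enrichment of 3.88 and lay within 1 kb of an end of the neighbouring gene Rcc2.

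Npm2, at chromosome 14, 70647296 to 70661802, had a peak in its body in all 4 libraries, at least 1934 bp from its higher-coordinate end. It was 956 and 1046 bp wide in the controls and 842 and 386 bp in Snf5 CKO, so that both Snf5 CKO values lay below both controls. Fold enrichments were 4.11, 4.48, 5.16 and 4.19. At its lower-coordinate end Control 2 had a peak of 299 bp with a fold enrichment of 3.05 and Snf5 CKO 2 a peak of 200 bp with 4.08, which crosses the groups. Snf5 CKO 2 alone had another peak of 223 bp in the gene, with a fold enrichment of 6.28. That peak also lay within 1 kb of an end of the gene Gm52133. A peak of 279 bp, 1496 bp outside Npm2, was likewise in Snf5 CKO 2 alone. A peak at an end of the neighbouring gene Fgf17, of 691 and 488 bp in the controls, was absent from both Snf5 CKO lists, while Fgf17 itself was open in all 4 libraries through other peaks.

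In all, the 10 loci held 22 merged regions and 52 peaks, 7 of them at the smallest width. Of the regions 8 were kept in all 4 libraries, 3 were lost and 1 was gained. Over all 66058 merged regions 29.4% were kept, 7.58% lost and 5.08% gained. The 3 lost regions were the Ooep start, the region beyond Tle6 and the Fgf17 end, and the gained region was the one beyond Ooep. A further 8 regions were present in 1 library only. Of the 8 kept regions 5 touched an end of another gene, namely Dtx2, Uqcrq, Dppa5a, Rsl24d1 and BC025920.

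Both Snf5 CKO widths lay below both control widths in 5 of the 8 kept regions, at Dtx2, Gdf9, Khdc3, Rsl24d1 and Npm2. The same held for 77.2% of kept regions near gene ends and 38.3% of other kept regions across the genome. As a log2 ratio of mean widths, Snf5 CKO over control, the median was −0.54 over these 8 regions, against −0.40 and −0.14 over all kept regions near and away from gene ends. Bases under peaks per locus averaged 922 and 830 in the controls and 641 and 522 in Snf5 CKO, a log2 ratio of −0.59 between group means of 876 ± 65.1 (SD, n = 2) and 582 ± 84.1 (SD, n = 2). Over the 15124 genes of like length it was −0.53. Sequencing depth is unknown, and the part of depth in these widths was not tested.

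**Figure D3:**
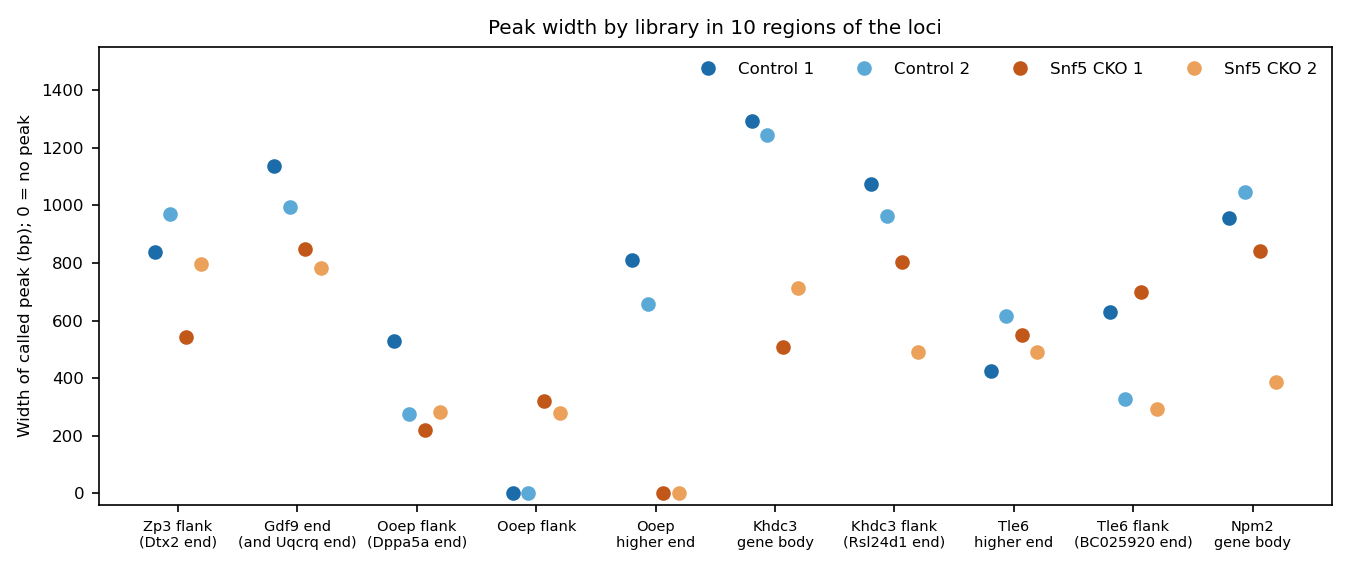
Width of the called peak in bp (y axis, 0 where no peak was called) in each library (coloured points) for the 8 regions kept in all 4 libraries and the 2 regions that differ at Ooep. At Khdc3 the controls measured 1294 and 1246 bp and the Snf5 CKO libraries 509 and 714 bp, while at Tle6 the groups overlapped.

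Genes next to the members were also examined. Of the 16 protein-coding genes with an end within 10 kb of a member, 10 were open in all 4 libraries, beside 55.0% of all protein-coding genes. None was lost or gained, beside 2.97% and 0.187% of all protein-coding genes. The 10 open neighbours were Prpf19, Tmem159, Dtx2, Aff4, Uqcrq, Dppa5a, Rab27a, Rsl24d1, Rcc2 and Fgf17. The other 6, Ptgdr2, Ssc4d, Leap2, Tle2, Padi4 and Xpo7, were open in none. Of the 5 members without a gene-end peak, 4 had an open neighbour: Zp1 (Prpf19), Zp2 (Tmem159), Khdc3 (Rab27a and Rsl24d1) and Padi6 (Rcc2). These neighbouring genes lay 3758 to 6838 bp from the members, but several of their peaks lay farther away. In Control 1 the Prpf19 peak was 18302 bp from Zp1 and the Tmem159 peak 23898 bp from Zp2. No peak within 10 kb of Khdc3 lay at an end of Rab27a. Within 10 kb of Padi6, Snf5 CKO 1 alone had a peak at an end of Rcc2. Padi4, a paralog 2865 bp from Padi6, had no gene-end peak in any library.

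Further genes of the oocyte were counted in the same way. Of all protein-coding genes 55.0% were open in all 4 libraries, 33.6% in none, 2.97% were lost and 0.187% gained. Of 11 further zona and oocyte secreted genes, 3 were open in all libraries (Bmp6, Cd9 and Fgf8), 7 were open in none and Izumo1r, the egg receptor for sperm IZUMO1, was lost. Bmp15, the closest partner of Gdf9 in oocytes, was among those open in none. Of 28 further maternal-effect genes, 14 were open in all libraries, among them Bnc1, Dppa3, Gpr3, Hsf1, Kdm1b and Nlrp4f. In this list 18 genes were open in both controls, and 3 of them were lost, Btg4, Zar1l and Zbed3, beside the 4.84% of such genes lost genome-wide. The weaker control peak had a −log10 q of 5.78 at Zbed3, 3.34 at Zar1l, 2.93 at Btg4 and 1.64 at Izumo1r. Btg4 and Izumo1r thus fell in the range under 3 where 35.5% of genes were lost. ZBED3 is a partner of the subcortical maternal complex, ZAR1L is a relative of the oocyte protein ZAR1, and BTG4 acts in clearance of maternal mRNA. The Zbed3 peaks were 817 and 740 bp wide in the controls with fold enrichments of 5.07 and 4.78. Those of Zar1l were 611 and 564 bp with 3.41 and 2.85, and those of Izumo1r 316 and 340 bp with 3.05 and 2.87. At Btg4 the controls had peaks of 1353 and 231 bp that did not overlap each other. The control peaks of Dppa3, of 200 and 268 bp, did not overlap each other either.

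Of 9 transcription factor genes of the oocyte, 5 were open in all 4 libraries, beside 55.0% of all protein-coding genes: Figla, Foxo3, Sohlh2, Taf4b and Tcf3. Figla had peaks of 1471 and 1189 bp in the controls and 612 and 665 bp in Snf5 CKO. Both Snf5 CKO widths lay below both control widths, as in 77.2% of kept regions near gene ends. Nobox was without a gene-end peak in Snf5 CKO 2 and Lhx8 in Snf5 CKO 1. Sohlh1 and Tbpl2 had no gene-end peak in any library. Nobox, Lhx8, Sohlh1 and Tbpl2 were named after their values were seen.

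Of 16 paralogs of the members, 7 were open in all 4 libraries, beside 55.0% of all protein-coding genes. Npm1 and Npm3, the nucleophosmin and nucleoplasmin relatives of Npm2, and Tle1, Tle3 and Tle4, corepressors related to Tle6, were among the 7, with Padi2 and Dppa5a. Padi1, Padi4, Tle2, Bmp15, Nlrp2 and Nlrp14 were open in none. Padi3 had a gene-end peak in all but Snf5 CKO 2, and Tle5 in Control 1 alone. Khdc1a, a KH-domain relative of Ooep, was gained, with peaks of 779 and 493 bp and fold enrichments of 4.03 and 3.45.

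**Figure D4:**
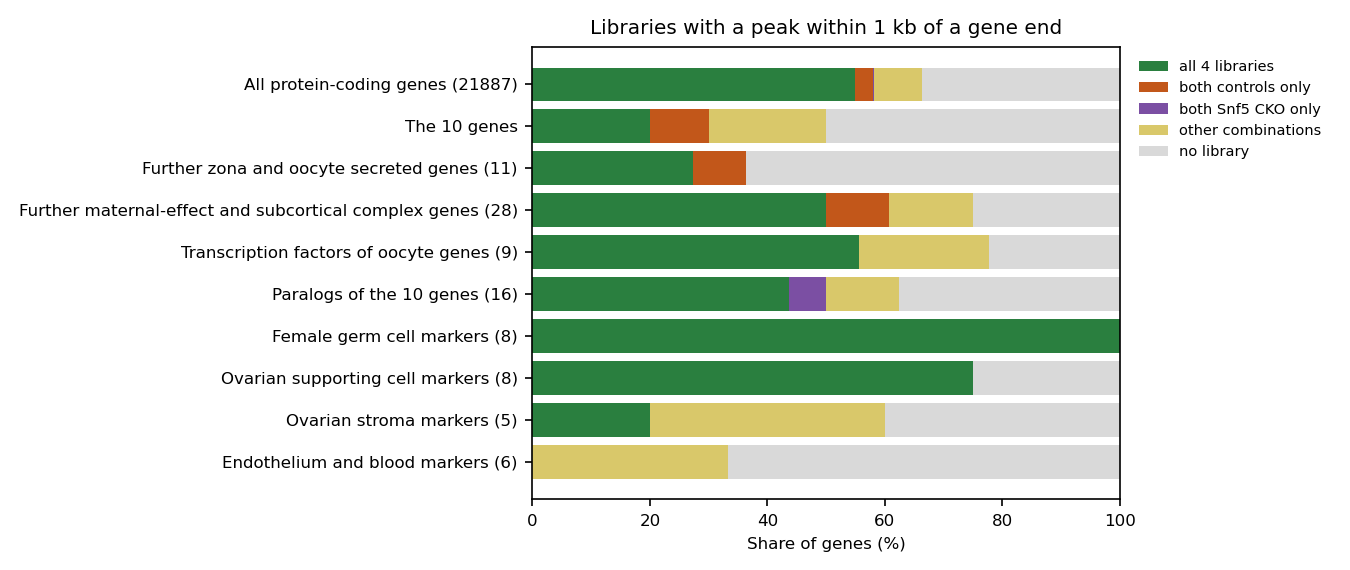
Share of genes in percent (x axis) with a peak within 1 kb of a gene end, by the libraries that had it (colours), for all protein-coding genes, the 10 genes, 4 lists of related genes and 4 lists of cell type markers (rows, number of genes in brackets). Of the 10 genes 2 are open in all 4 libraries, beside 55.0% of all protein-coding genes.

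The lists held 39465 and 36730 peaks in the controls and 45422 and 28625 in Snf5 CKO. Gene ends were open at all 8 female germ cell markers in every library, beside 55.0% of all protein-coding genes. These 8 include Pou5f1, the Oct4 gene, whose reporter was used to sort the cells. Gene ends were also open at 6 of 8 ovarian supporting cell markers in every library (Foxl2, Fst, Kitl, Rspo1, Wnt4 and Wt1). Gata4 and Amhr2 were open in none. Of 5 stroma markers 3 and 3 were open in the controls and 3 and 1 in Snf5 CKO, and of 6 endothelium and blood markers 2 and 1, and 1 and 0. With the gene plus 1 kb searched, 7 of 8 supporting cell markers and 3 of 5 stroma markers had a peak in all 4 libraries. The same held for all 8 germ cell markers and 0 of 6 endothelium and blood markers, beside 63.3% of all protein-coding genes. Of all protein-coding genes 63.3% and 63.0% were open in the controls and 60.4% and 56.4% in Snf5 CKO. An open end is not expression, and the part of other cell types in the member values was not tested.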

How the data were processed

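ATAC-seq peak lists of 4 libraries, 2 Control and 2 Snf5 CKO, were used as the authors deposited them, with 1 list called per library. Per the submitters' processing notes the build was mm10, reads were 50 bp and the tools listed include MACS2 2.2.7.1, Picard 2.25.2, Bowtie2 2.4.2, SAMtools 1.10 and Trim Galore 0.6.5. Peak-calling thresholds, duplicate handling and any shift of read ends are not given there. Each deposited peak has a score, a fold enrichment ratio, and −log10 p and −log10 q values from the authors' peak caller, used here within a list alone. No read counts were used, so the depth is unknown, and openness below detection cannot be seen.

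Genes were placed from the RefSeq table of GRCm38.p6, the assembly of mm10, which gives gene ends without strand; starts and strands came from the RefSeq promoter table for the 6 members in it. A peak was assigned by an overlap of at least 1 bp with windows of 1 kb either side of both gene ends, or with the gene plus 10 kb. Lists were merged where peaks overlapped by 1 bp. Kept, lost and gained mean a peak in all 4 libraries, in both controls alone and in both Snf5 CKO libraries alone. No test was made. The text names all members, their neighbours within 10 kb, and from each list of oocyte genes up to 6 kept, 4 lost and 4 gained genes in alphabetical order, with all paralogs; other genes were named after their values were seen. The members, lists and rules were chosen with earlier results of these data known. Analysis used Python 3.11.15, pandas 2.3.3, NumPy 2.4.6 and Matplotlib 3.10.9, and the interval rules were tested on simulated data.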

Additional observations from a re-analysis of the deposited data

How the results depend on the processing

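Of 93 alternative values, 80 stayed close to the reported ones (counts within 1.5 times, log2 ratios within the spread between replicates) and 13 moved. Most of the values are counts, which cannot change sign, and no log2 ratio changed sign. Windows of 2 kb gave 5 members open in both controls, 4 kept and 0 lost, since they reach the inner peak of Khdc3, that of Npm2 in the controls, and the Snf5 CKO peak beyond Ooep. A −log10 q of at least 3 left 0 lost members and a log2 ratio of bases per locus of −0.77, and flanks of 20 kb gave −0.38. Starts alone, known for 6 members, left 2 without a peak. The alternatives added after the data were seen gave, for a peak anywhere in the gene plus 1 kb, 5 open in both controls, 4 kept and a median width ratio of −0.43 (log2), and, without peaks shared with another gene's end, 1 kept and 0.00. That ratio was −0.19 over Gdf9 and Tle6 in the reported setting. With 1 library left out in turn, 1 to 2 members were lost, the higher count without Control 2. No member was gained in any alternative. No paired analysis was made: no result comes from a test, and the labels do not say that the numbers shared by Control and Snf5 CKO libraries pair them. Unknown depth limits every absence of a peak.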

Other observations

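The wider Nlrp family, to which Nlrp5 belongs, was examined after the data had been seen. Of 18 Nlrp genes named by number, Nlrp5 included, 14 had no gene-end peak in any library, beside 33.6% of all protein-coding genes. In the gene plus 1 kb 11 had no peak, beside 24.2% of all protein-coding genes. Nlrp4f and Nlrp12 were open in all 4 libraries, and Nlrp3 was open in Control 1 alone. Nlrp4c was open in both controls and in neither Snf5 CKO library, as were 2.97% of all protein-coding genes. In the gene plus 1 kb Nlrp4c was not lost, since a Snf5 CKO library also had a peak there. Nlrp9b and Nlrp1b had no gene-end peak but had peaks inside the gene in each of the 4 libraries. No cause of these differences was tested.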
